A study of Mus musculus with 16 samples.

Results

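The 10 genes studied here mark macrophages of the heart. Lyz2, C1qa, C1qb, C1qc, Csf1r, Adgre1, Cd68, Cd163, Mrc1 and Lyve1 were followed through the atria and ventricles of adult mice with and without an induced deletion of Meis1 and Meis2 in heart muscle. The members are the rows of the deposited table that carry these names, 10 of its 16118 genes, and all 10 were found and passed the filter on low values in every comparison. By limma, Lyz2 was the only one of them called between genotypes: it rose in idKO ventricles, a call that several other settings did not give, while DESeq2 called C1qb and C1qc too. In atria it was not called, and the test of the difference between the chambers did not pass either. Lyve1 and Csf1r were higher in atria than in ventricles in all 8 mice, and Lyve1 by far the more, at 2.01 to 3.83 times the ventricular level of the same mouse.

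Macrophages are phagocytes that live in every organ, and those of the heart sit between muscle cells, vessels and nerves, where they clear dying cells and debris and keep the tissue in repair. Some descend from the embryo and renew themselves locally, and others arrive as blood monocytes. Their survival depends on the receptor CSF1R and its ligands. Resident macrophages of the heart are known for the surface proteins LYVE1, MRC1 and CD163, and for making the subunits of C1q, the part of complement that recognises its targets.

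RNA carrying a poly(A) tail was sequenced from the atria and from the ventricles of 8 male littermates, 4 of each genotype, which gives 4 groups of 4 libraries. Per the labels, the idKO mice carried floxed alleles of Meis1 and Meis2 on both chromosomes and 1 copy of the α-MHC-MerCreMer transgene, a tamoxifen-activated Cre recombinase under a promoter of heart muscle cells. The control mice carried the same floxed alleles and no transgene. Hearts were taken 2 weeks after tamoxifen induction and were flushed with saline through a cannula before the chambers were separated. MEIS1 and MEIS2 are homeodomain transcription factors. The deletion was directed at muscle cells and not at macrophages, and controls lack the Cre, so effects of the transgene are part of every idKO difference. No age beyond adult is given in the labels.

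The mice are separate animals, and a control or idKO number names 1 mouse in both chambers. Libraries held 13.1 to 21.8 M (mega) reads in genes. A value is a normalised read count: reads of the gene relative to the library's effective size, as scaled by the authors. The effective size was 0.947 of the summed reads on average in control atria and 0.958 in idKO atria, against 0.639 and 0.687 in the ventricles of control and idKO mice. Mitochondrially encoded genes took 17.2% of reads in both groups of atria. In ventricles they took 30.9% in control and 29.0% in idKO mice. Comparisons between chambers depend on this scaling, and their values under other scalings are given beside them. In ventricles, Meis2 fell from 22.4 to 32.6 in controls to 7.78 to 9.66 in idKO mice (limma log2 fold change -1.49, adjusted p = 2.0e-05), while Meis1 was not called (-0.24, adjusted p = 0.249). In atria neither was called (Meis2 -0.16, adjusted p = 0.966; Meis1 0.06, adjusted p = 0.986). Both counts include any transcript left by the deleted alleles.

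**Figure D1:**
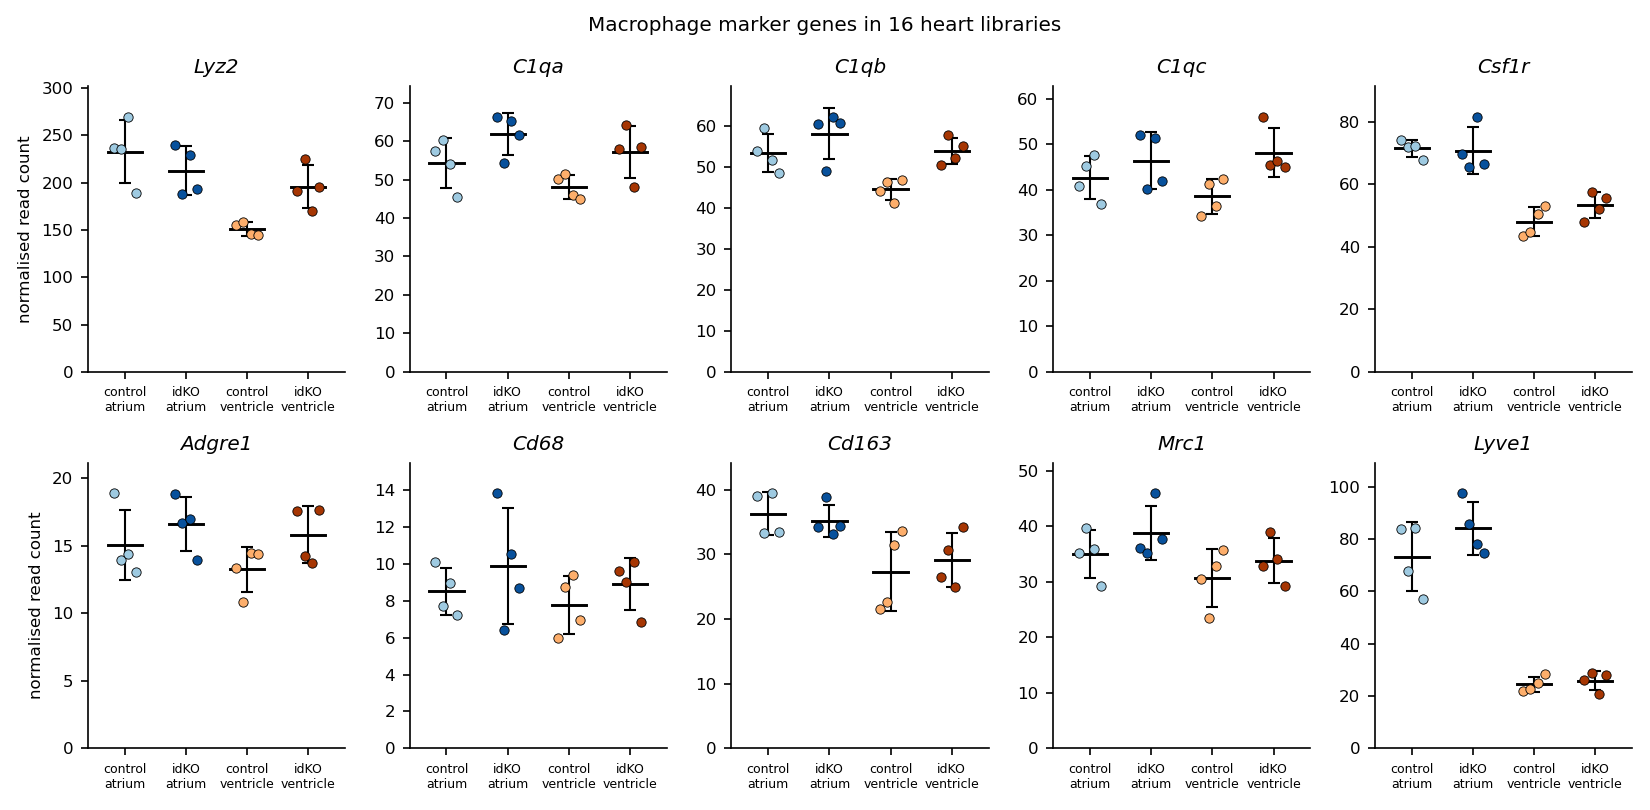
Normalised read count of each of the 10 genes in the 16 libraries (vertical axis from 0, its range set per gene; 4 groups along the horizontal axis). Points are single libraries, the wide bar is the group mean and the error bar the SD (n = 4). Lyve1 sits between 57.2 and 97.6 in atria and between 20.9 and 28.8 in ventricles, while most other genes overlap between chambers.

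Lyz2 encodes the lysozyme that macrophages and neutrophils secrete to break down bacterial walls, and it had the highest level per kilobase of transcript of the 10 genes in every group. The gene lies on chromosome 10 from 117277331 to 117282321 on the minus strand (GRCm38, 4 exons). Its neighbour Lyz1, on the same chromosome from 117287797 to 117292868, is a near copy. The coding sequences differ at 22 of 447 bases, 95.1% identity. The stretch of coding bases 61 to 120 is shown because it holds 9 of those differences, in capitals, and so lets a read of 60 bases be placed.
Lyz2: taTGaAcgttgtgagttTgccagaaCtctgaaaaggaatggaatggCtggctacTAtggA
Lyz1: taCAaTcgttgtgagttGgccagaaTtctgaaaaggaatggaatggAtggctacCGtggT
Reads from 127 of the 1257 windows of 60 bases in the Lyz2 transcript, 10.1%, cannot be placed this way, since these windows occur unchanged in Lyz1. Both sequences are from the GENCODE vM21 transcripts.

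In ventricles Lyz2 measured 155, 159, 146 and 144 in control mice 1 to 4 and 192, 225, 170.1 and 196 in idKO mice 1 to 4. In atria it measured 237, 235, 269.9 and 189 in controls and 239.7, 188, 229 and 194 in idKO mice. Every idKO ventricle stood above every control ventricle, while the atria of both genotypes overlapped. Control atria all stood above control ventricles, whereas 2 of the 4 idKO atria lay within the range of the idKO ventricles. The near copy Lyz1, of similar transcript length, was at 2.14 to 2.87 in control ventricles, 2.98 to 4.36 in idKO ventricles and 4.94 to 14.3 over all atria. Its level relative to Lyz2 was 1.66% ± 0.309 (SD, n = 4) in ventricles of controls and 1.94% ± 0.371 in those of idKO mice.

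C1qa, C1qb and C1qc encode the 3 chains of C1q, which binds immune complexes and dying cells and starts the classical complement cascade. They lie side by side on the minus strand of chromosome 4, C1qb from 136880129 to 136886187, C1qc from 136889804 to 136893065 and C1qa from 136895917 to 136898803 (GRCm38, 3 exons each). The promoter of C1qb is shown because C1qb varied with its neighbour C1qa across libraries, as described further on. The 250 bases before its RefSeq start, chr4:136886201-136886450 on the minus strand of GRCm38.p6, hold 1 copy of GAGGAA, the core bound by the macrophage factor PU.1 (Spi1), in capitals, 30 bases before the start.
C1qb promoter: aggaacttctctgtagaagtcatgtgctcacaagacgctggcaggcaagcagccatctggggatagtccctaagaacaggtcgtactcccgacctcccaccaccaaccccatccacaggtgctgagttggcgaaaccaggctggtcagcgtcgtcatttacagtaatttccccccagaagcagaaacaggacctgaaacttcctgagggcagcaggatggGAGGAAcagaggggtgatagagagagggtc
GAGGAA was searched on both strands (TTCCTC on the other). It occurs in the window of 4 of the 6 members whose RefSeq promoter was read, C1qb, C1qc, Cd68 and Mrc1, and in 7639 of 32851 promoters of that length, 23.3%. Csf1r was left out of the search by its chromosome, while the 32851 promoters were not filtered in that way. A match is a string of letters and not evidence of binding.

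C1qa measured 50.2, 51.4, 46.0 and 44.9 in control ventricles and 58.0, 64.2, 48.1 and 58.4 in idKO ventricles. C1qb measured 44.1, 46.2, 41.1 and 46.7 in control ventricles and 50.4, 57.6, 52.2 and 55.0 in idKO ventricles, and C1qc 34.3, 41.2, 36.4 and 42.3 against 56.1, 45.3, 46.2 and 45.0. For C1qb and C1qc every idKO ventricle was above every control, and for C1qa idKO mouse 3 fell among the controls. In atria the 3 chains overlapped between genotypes. C1qa ran at 57.4, 60.2, 54.2 and 45.5 in controls and 66.4, 54.3, 65.2 and 61.5 in idKO mice. C1qb ran at 53.9, 59.5, 51.6 and 48.4 against 60.5, 48.9, 62.2 and 60.8, and C1qc at 40.9, 45.1, 47.5 and 36.9 against 52.1, 40.3, 51.4 and 41.9. On group means the 3 chains kept near the same proportion: C1qb was 0.927 to 0.986 of C1qa on average in the 4 groups and C1qc 0.749 to 0.851. In single libraries the ratio to C1qa ran wider, from 0.870 to 1.085 for C1qb and from 0.682 to 0.967 for C1qc.

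Csf1r encodes the receptor for the growth factors CSF1 and IL-34, on which macrophages depend (chromosome 18, 61100598 to 61132149, plus strand, 21 exons). It measured 43.5, 44.8, 50.6 and 53.2 in control ventricles and 48.1, 57.6, 52.3 and 55.5 in idKO ventricles. In atria it measured 74.3, 71.9, 72.4 and 67.9 in controls and 69.7, 65.5, 81.7 and 66.4 in idKO mice. Each atrial library lay above all 8 ventricles, and genotypes overlapped within each chamber. Of the windows of 60 bases in its transcript, 17.5% also occur in annotated transcripts of the neighbour Hmgxb3, and no source used here says how such reads were divided. Adgre1 encodes F4/80, the surface receptor by which mouse macrophages are classically recognised (chromosome 17, 57358691 to 57483527, plus strand, 22 exons). It ran at 10.8 to 14.4 in control ventricles, 13.7 to 17.7 in idKO ventricles, 13.1 to 18.9 in control atria and 14.0 to 18.8 in idKO atria, with overlap throughout.

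The other 4 members are receptors of endosomes, lysosomes and the cell surface that take up debris or bind matrix. Cd68, a lysosomal glycoprotein (chromosome 11, 69664213 to 69666153, minus strand, 6 exons), had the fewest reads, 73 to 193 per library. Its values ran from 6.0 to 9.41 in control ventricles, 6.88 to 10.1 in idKO ventricles, 7.25 to 10.1 in control atria and 6.44 to 13.8 in idKO atria. Cd163, the scavenger receptor for haemoglobin bound to haptoglobin (chromosome 6, 124304656 to 124330527, plus strand, 17 exons), measured 21.6, 22.7, 31.4 and 33.6 in control ventricles and 26.5, 30.6, 25.0 and 34.3 in idKO ventricles. It ran from 33.3 to 39.5 in control atria and 33.2 to 38.9 in idKO atria, where 1 ventricle of each genotype reached the lower atria. Mrc1, the mannose receptor CD206 (chromosome 2, 14229392 to 14332057, plus strand, 30 exons), ran from 23.5 to 35.8 in control ventricles, 29.3 to 39.1 in idKO ventricles, 29.3 to 39.7 in control atria and 35.3 to 46.0 in idKO atria, and its groups overlapped.

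Lyve1 encodes a hyaluronan receptor of resident macrophages and of lymphatic endothelium (chromosome 7, 110850607 to 110863239, minus strand, 6 exons). It measured 84.0, 67.8, 84.2 and 57.2 in control atria and 97.6, 85.8, 78.2 and 74.7 in idKO atria. In ventricles it measured 21.9, 22.7, 25.0 and 28.4 in controls and 26.1, 28.8, 20.9 and 27.9 in idKO mice. The lowest atrium stood well above the highest ventricle, and the genotypes overlapped in both chambers.

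Per kilobase of transcript the order of levels was nearly the same in every group. Lyz2 led with 115 ± 5.30 in control ventricles and 177 ± 25.2 in control atria (normalised read count per kilobase, SD, n = 4), apart from the next gene. C1qa, C1qb and C1qc followed, at 46.3 ± 3.04, 40.9 ± 2.33 and 32.0 ± 3.18 in control ventricles. Adgre1 was last at 4.09 ± 0.522, and neighbours among Cd68, Cd163 and Mrc1 above it overlapped in all 4 groups. Lyve1 and Csf1r changed places: in control atria Lyve1 (25.3 ± 4.56) was above Csf1r (15.2 ± 0.580) with no overlap, and in control ventricles Csf1r (10.2 ± 0.979) was above Lyve1 (8.48 ± 1.01) with overlap. Neighbours C1qa and C1qb overlapped in the other 3 groups. Summed over the 10 genes, the normalised read count was 434 ± 12.6 in control ventricles, 522 ± 40.7 in idKO ventricles, 623 ± 65.8 in control atria and 635 ± 55.4 in idKO atria. In bulk tissue, fewer cells of a type and less RNA per cell cannot be told apart.

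The first comparison asked whether macrophage transcripts differ in ventricles after the deletion in muscle. All 10 genes had a positive log2 fold change, where 48.2% of the 13808 genes tested did, and the median over the 10 was 0.21 against -0.01 over all genes. Lyz2 rose from 151 ± 6.98 to 196 ± 22.8 (SD, n = 4), a log2 fold change of 0.37 ± 0.08 (SE; limma adjusted p = 0.029), higher in 4 of 4 idKO mice than in any control. It was the 1 member called; limma called 1.95% of all genes in either direction 0.492% as higher and 1.46% as lower. The groups did not overlap for 3 members, Lyz2, C1qb and C1qc, and 3.17% of all genes tested were separated in this direction and 5.62% in the other.

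The C1q chains came next to Lyz2 and were not called. Their log2 fold changes were 0.31 ± 0.09 for C1qc (SE; limma adjusted p = 0.125), 0.27 ± 0.07 for C1qb (adjusted p = 0.097) and 0.24 ± 0.09 for C1qa (adjusted p = 0.238). DESeq2 on the recovered reads called C1qb and C1qc as well as Lyz2, where it called 193 of all 13808 genes higher and 345 lower. The remaining 6 ran from 0.24 ± 0.13 for Adgre1 to 0.07 ± 0.12 for Lyve1, with adjusted p up to 0.831. The interval of 2 SE reached from -0.16 to 0.31 for Lyve1, from -0.19 to 0.39 for Cd163 and from -0.02 to 0.32 for Csf1r. The call of Lyz2 depended on the setting: with all libraries its adjusted p was 0.157 under a prior without trend and 0.0593 in a joint fit of both chambers. It was also above 0.05 without control ventricle 1, 3 or 4 or idKO ventricle 1 or 2 (0.102 at the highest), and its log2 fold change stayed between 0.30 and 0.43 whichever library was left out. With Lyz1 and Lyz2 summed as 1 gene, an alternative chosen after seeing the data, it was 0.37 (adjusted p = 0.026).

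**Figure D2:**
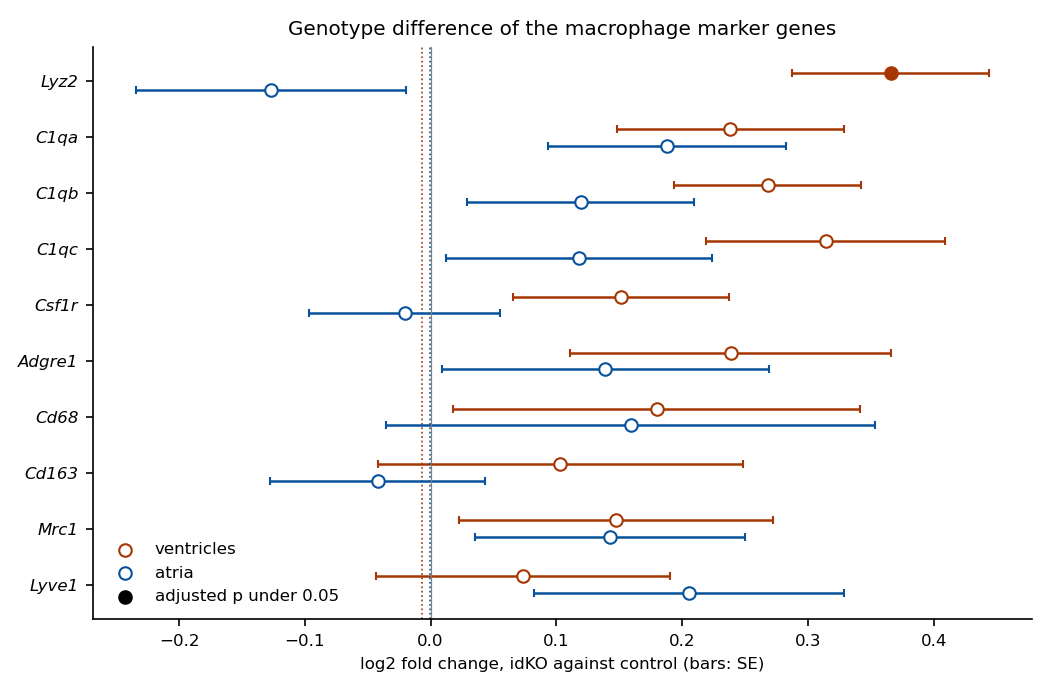
Log2 fold change of idKO against control on the log2(value + 1) scale for each gene (horizontal axis; bars are the SE from limma), in ventricles (brown) and atria (blue); filled points passed an adjusted p of 0.05 and dotted lines are the medians of all genes tested. All 10 ventricular points lie above 0 and 1 is filled, Lyz2 at 0.37, while its atrial point lies at -0.13.

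In atria none of the 10 was called by limma, edgeR, DESeq2 or voom, and 0 had an unadjusted limma p under 0.05. Of all 14598 genes, limma called 0.0206%. The log2 fold changes ran from -0.13 ± 0.11 for Lyz2 (SE; adjusted p = 0.966) to 0.21 ± 0.12 for Lyve1, 7 of 10 were positive where 49.9% of all genes were, and the median was 0.13. No member's groups were separated, against 1.51% of genes higher and 1.29% lower. The interval of 2 SE for Lyve1 reached from -0.04 to 0.45.

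The difference of the genotype effects between chambers was tested over all 16 libraries. No member was called by limma, edgeR, DESeq2 or voom, where limma called 0.299% of 15075 genes (45, or 103 with the mouse as a block), and 1 had an unadjusted p under 0.05. This was Lyz2, whose effect in atria was lower than in ventricles by a log2 difference of -0.49 ± 0.14 (SE; limma adjusted p = 0.319, and 0.133 with the mouse as a block). Its atrium stood at 1.54 ± 0.225 times the ventricle of the same mouse in controls and at 1.11 ± 0.236 times in idKO mice (SD, n = 4), with ratios of 1.31 to 1.85 and 0.834 to 1.35. The ratio of Lyz2 to C1qa in a library moved from 3.14 ± 0.0641 to 3.43 ± 0.113 in ventricles and from 4.30 ± 0.470 to 3.44 ± 0.199 in atria. Control and idKO libraries did not overlap for that ratio in either chamber, and it was picked after its values were seen.

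Other genes of macrophages were read from 8 lists of 111 genes, 94 of them tested in ventricles. Limma called 0 of them between genotypes in ventricles, 18 with an unadjusted p under 0.05. How many of all genes fell under that unadjusted p was not counted, so no excess is read from the 18. EdgeR and voom also called 0, and DESeq2 called Coro1a, Csf1 and Lipa higher and C3 lower. Of all 13808 genes DESeq2 called 193 higher and 345 lower, so its calls in these lists lie near its background share. Of 20 further macrophage and pan-myeloid genes 16 were positive, with a median log2 fold change of 0.22. Coro1a, an actin regulator of leukocytes, went from 7.56 ± 0.824 to 10.98 ± 1.76 (0.48 ± 0.14 SE, limma adjusted p = 0.115), and Ctss, the lysosomal protease cathepsin S, from 21.96 ± 1.62 to 26.3 ± 3.06 (0.25, adjusted p = 0.285). Of 12 genes of resident macrophages 9 were positive, with a median of 0.20; Stab1, a scavenger receptor, went from 63.7 ± 3.93 to 73.3 ± 6.39 (adjusted p = 0.255). Of 7 tested genes of monocytes and recruited macrophages 6 were positive, with a median of 0.06. Lipa, the lysosomal acid lipase, went from 39.2 ± 2.96 to 48.4 ± 1.08 (0.30, adjusted p = 0.065) and was called by limma under both other scalings.

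Limma called no signal or regulator of macrophages in ventricles. Csf1 was among the DESeq2 calls above, which lie near that tool's share of all genes. Csf1, the ligand of CSF1R, measured 45.3 ± 2.11 in control and 54.9 ± 4.09 in idKO ventricles (log2 difference 0.27 ± 0.08 SE, limma adjusted p = 0.097), and the other ligand, Il34, was at 3.67 ± 1.301 and 3.61 ± 0.791. Ccr2, the receptor by which monocytes are drawn into tissue, was at 4.63 ± 1.44 and 5.27 ± 2.87. Il34 and Ccr2 were named for their roles after their values were seen. The median was 0.02 over 11 growth factors and chemokines, 0.19 over 10 transcription factors, 0.17 over 10 complement genes, 0.07 over 15 genes of engulfment and lysosomes and -0.01 over 9 genes of macrophage activation. In atria limma called 0 of 99, 12 with an unadjusted p under 0.05, edgeR, DESeq2 and voom called 0, and the medians of these 8 lists ran from -0.04 for transcription factors to 0.26 for growth factors and chemokines. The share of all genes under that unadjusted p was not counted, so no excess is read from the 12.

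Markers of other cells were read beside the ventricular values. The 6 fibroblast genes summed to 936 ± 74.4 in control ventricles (881 to 1044) and 1118 ± 270 in idKO ventricles (932 to 1511), and 0 of 6 were called by limma, with 1 at an unadjusted p under 0.05, and 0 by edgeR, DESeq2 and voom. The 6 red cell genes summed to 394 ± 38.9 and 325 ± 93.6, and 6 muscle genes to 77225 ± 1989 and 73841 ± 4891, of which Ryr2, the calcium release channel, fell (log2 fold change -0.66, limma adjusted p = 0.0011). Of 8 neutrophil genes S100a9 and Csf3r were in the table, and their sum was 1.41 to 2.85 in control and 2.05 to 2.54 in idKO ventricles. S100a9, a defining neutrophil gene, ran from 0.0273 to 1.84 over all 16 libraries. Slc4a1, a red cell gene, had 0 reads in every idKO library. With controls included it was still too low to pass the filter in any comparison, so it was not tested. The part of fibroblasts, red cells and muscle in the member values was not tested.

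Chambers differed more than genotypes. In control mice 5 of the 10 members were higher in atria and 0 lower; limma called 56.3% of the 15075 genes, 28% as higher in atria and 28.4% as lower, so 5 of 10 lies above the background share and no test of that excess was made. All 10 log2 fold changes were positive (51.4% of all genes), with a median of 0.22 against 0.02. In idKO mice 2 were higher and 0 lower, where limma called 53.2% of all genes, 26.5% as higher and 26.7% as lower, 9 were positive (51.8% of all genes), and the median was 0.12. The difference between these 2 counts is that of the interaction above, in which no member was called. Every atrium stood above every ventricle for Lyz2, C1qb, Csf1r and Lyve1 in control mice and for Csf1r and Lyve1 in idKO mice. Of all genes, 24.6% and 22.7% were separated in this direction. The share separated in the other direction was not counted.

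Lyve1 carried the widest chamber difference. It was 73.3 ± 13.2 in atria and 24.5 ± 2.91 in ventricles of control mice, a log2 fold change of 1.53 ± 0.13 (SE; limma adjusted p = 5.7e-09), and 84.1 ± 10.1 and 25.9 ± 3.57 in idKO mice (1.66 ± 0.13, adjusted p = 2.1e-09). The ratio within a mouse was 3.83, 2.98, 3.37 and 2.01 in controls and 3.74, 2.98, 3.75 and 2.67 in idKO mice, above 1 in 8 of 8. Csf1r was also higher in the atrium of each mouse, by 1.14 to 1.71 times, with log2 fold changes of 0.57 ± 0.08 (adjusted p = 7.3e-06) in controls and 0.40 ± 0.08 (adjusted p = 3.8e-04) in idKO mice. In controls limma also called Lyz2 (0.61 ± 0.10, adjusted p = 4.1e-05), Cd163 (0.42 ± 0.13, adjusted p = 0.0096) and C1qb (0.25 ± 0.08, adjusted p = 0.013). In idKO mice Cd163 was at 0.27 ± 0.13 (adjusted p = 0.082), and with the mouse as a block it was called (adjusted p = 0.043).

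**Figure D3:**
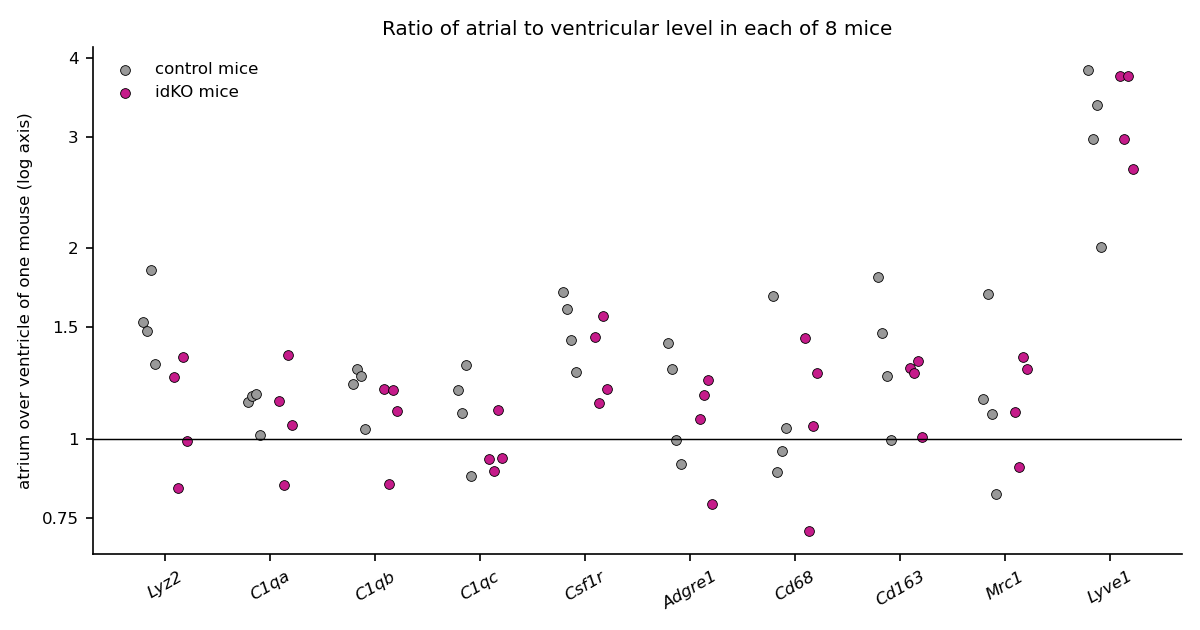
Level in the atrium divided by the level in the ventricle of the same mouse for each gene (log axis), control mice in grey and idKO mice in magenta, 1 point per mouse (4 of each genotype). Lyve1 and Csf1r lie above 1 in all 8 mice, Lyve1 between 2.01 and 3.83, while C1qc lies above 1 in 4 of 8.

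Among the other members the 8 mice did not all share a direction. C1qa and C1qb were higher in the atrium in 7 of 8 mice, Cd163 in 7, Mrc1 and Lyz2 in 6, Adgre1 and Cd68 in 5 and C1qc in 4. Log2 fold changes of the 5 not called in controls ran from 0.13 ± 0.19 for Cd68 to 0.20 ± 0.12 for Mrc1. The markers of one cell type thus had unlike chamber ratios: Lyve1 was 2.10 ± 0.325 times Mrc1 in control atria and 0.811 ± 0.109 times in control ventricles, and 2.20 ± 0.448 and 0.774 ± 0.142 times in idKO mice. These are ratios of normalised read counts within a library and do not rest on the scaling. Scaling did decide how many members were called. With values taken relative to all summed reads, all 10 were higher in atria in both genotypes, but the median of all genes then moved from 0.02 to 0.50 in controls and to 0.43 in idKO mice, beside member medians of 0.77 and 0.59. Limma then called 9923 of all 15075 genes higher in atria of controls and 9284 in those of idKO mice. Scaled to reads of genes outside the mitochondrial genome, 9 and 7 were called, with medians of 0.52 and 0.37 beside 0.29 and 0.25 over all genes. In that setting 7259 and 6703 of all 15075 genes were called higher. C1qc, at -0.06 in idKO mice, turned to 0.41 and 0.20 under these scalings.

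Lyve1 is shared with lymphatic endothelium, and of 6 lymphatic genes limma called 4 lower and 1 higher in control atria, and 3 lower and 1 higher in idKO atria. Of all genes limma called 28.4% lower and 28% higher in control atria, and 26.7% and 26.5% in idKO atria. Prox1, the master factor of lymphatic identity, which heart muscle cells also express, was 52.4 ± 4.92 in control atria and 102 ± 6.53 in control ventricles (log2 fold change -0.95, limma adjusted p = 3.3e-08). Ccl21a, a lymphatic chemokine, was 11.04 ± 1.38 and 29.6 ± 6.31 (-1.33, adjusted p = 2.1e-06), and Mmrn1 and Reln were also lower in control atria. Pdpn, podoplanin, was higher in atria at 18.5 ± 2.29 against 6.55 ± 0.956 (1.37, adjusted p = 1.3e-06), and Flt4, the receptor of lymphatic growth factors, was not called (0.16). Summed, the 6 genes ran from 100.5 to 116 in control atria and from 150.4 to 186 in control ventricles. Prox1 and Ccl21a stayed lower in atria under both other scalings. Mmrn1 and Reln were no longer called in controls there, and Flt4 was called higher.

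Of 12 resident macrophage genes limma called 7 higher in atria and 0 lower in each genotype, Fcna, Gas6, Igf1, Mertk, Stab1, Timd4 and Vsig4 in both, where 28% of all genes were higher in controls and 26.5% in idKO mice, with a median log2 fold change of 0.70 in controls and 0.61 in idKO mice beside 0.02 over all genes. Stab1 was 159 ± 14.2 in control atria and 63.7 ± 3.93 in control ventricles (1.302, limma adjusted p = 1.2e-10), and Vsig4, a complement receptor of resident macrophages, 13.3 ± 1.84 and 1.09 ± 0.632 (2.82, adjusted p = 4.0e-09). Gas6, a bridging ligand for dying cells, was 336 ± 11.01 and 184 ± 8.999, and Igf1 24.4 ± 2.85 and 11.03 ± 2.37. Fibroblasts and vessels also make Gas6 and Igf1, and vessels Stab1. Timd4, a receptor for phosphatidylserine on self-renewing macrophages, was 5.28 ± 1.32 and 1.79 ± 0.613 (1.18, adjusted p = 6.9e-05), while Folr2, the folate receptor of the same cells, was not called (0.25, adjusted p = 0.188). Timd4, Folr2, Fcna and Mertk were named after their values were seen.

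Of 20 pan-myeloid genes limma called 12 higher in atria of controls and 5 in those of idKO mice, with medians of 0.46 and 0.29 and 0 lower. Beside the 28% and 26.5% of all genes called higher in these comparisons, 5 of 20 is no more than the background share, and 3 of 11 or 3 of 10 in the lists that follow lie near it. Itgam, the integrin CD11b, was 11.6 ± 2.04 in control atria and 6.47 ± 0.758 in control ventricles (log2 fold change 0.75, adjusted p = 3.3e-04). All calls of the pan-myeloid list are named here. Coro1a, Cybb, Itgb2, Ptprc, Lcp1, Laptm5, Cd53, Mpeg1 and Fcer1g were called in controls only. Itgam, Ctss and Aif1 were called in both genotypes, and Pf4 and Tyrobp in idKO mice only. Lymphocyte genes summed to 23.1 to 63.5 in control atria, 5.07 to 53.9 in idKO atria and 3.52 to 5.13 in control ventricles. The part of lymphocytes in these calls was not tested. Of 9 monocyte genes 6 and 7 were higher, among them Itgal, an integrin that lymphocytes also carry, at 9.51 ± 2.20 and 1.87 ± 0.917 in controls, and Gpnmb at 8.81 ± 1.38 and 2.74 ± 0.881. Both counts include Ace, at 70.5 ± 4.81 and 60.9 ± 6.31 in controls. It had the highest level of the 9 and the smallest log2 fold change of those called (0.21 in controls and 0.26 in idKO mice). Of 11 complement genes 9 were higher in both genotypes. Cfd had the smallest limma p in each, at 84.9 ± 49.5 against 0.841 ± 0.278 in controls (log2 fold change 5.39). C4b (107 ± 14.5 against 18.2 ± 3.67) and C3 (703 ± 106 against 202 ± 12.1) are made by fibroblasts as well as macrophages. Of 11 growth factors and chemokines, Csf1 was higher in control atria (62.2 ± 9.33 against 45.3 ± 2.11; 0.44, adjusted p = 4.0e-04) and Cxcl12, a chemokine of stroma and vessels, lower (68.9 ± 9.91 against 161 ± 11.01). In all 3 of these 11 were higher and 2 lower in control atria, and 1 and 1 in idKO atria. Among transcription factors Nr1h3, Cebpa and Irf5 were higher in control atria and Cebpb lower, 5 of 10 higher and 1 lower in all, against 3 and 1 in idKO mice. Spi1, which encodes PU.1 and was named for its role after its values were seen, was 8.07 ± 1.86 and 4.79 ± 0.776 (0.63, adjusted p = 0.011). Of 16 genes of engulfment and lysosomes 10 were higher and 2 lower in control atria, and 8 and 2 in idKO atria. Of 11 genes of macrophage activation 5 were higher and 1 lower in each genotype.

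Cell markers that could move with these chamber values did differ. All 6 fibroblast genes were higher in atria in both genotypes, summing to 1203 to 1955 in control atria, 1398 to 2071 in idKO atria, 881 to 1044 in control ventricles and 932 to 1511 in idKO ventricles. Of all genes limma called 28% higher in control atria and 26.5% in idKO atria. Lymphocyte genes, of which 6 of 10 were in the table, summed to 23.1 to 63.5 in control atria, 5.07 to 53.9 in idKO atria, 3.52 to 5.13 in control ventricles and 3.64 to 4.62 in idKO ventricles; Cd3e, Cd3g, Cd8a and Nkg7 were not among the rows. The 6 muscle genes summed to 48966 to 57379 in control and 47641 to 55101 in idKO atria, against 75502 to 80049 and 66525 to 76597 in ventricles. The red cell genes summed to 76.6 to 197 in control and 56.0 to 118 in idKO atria, against 359.7 to 449 and 191 to 403 in ventricles. Their part in the chamber values was not tested, and no markers of fat cells were read.

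**Figure D4:**
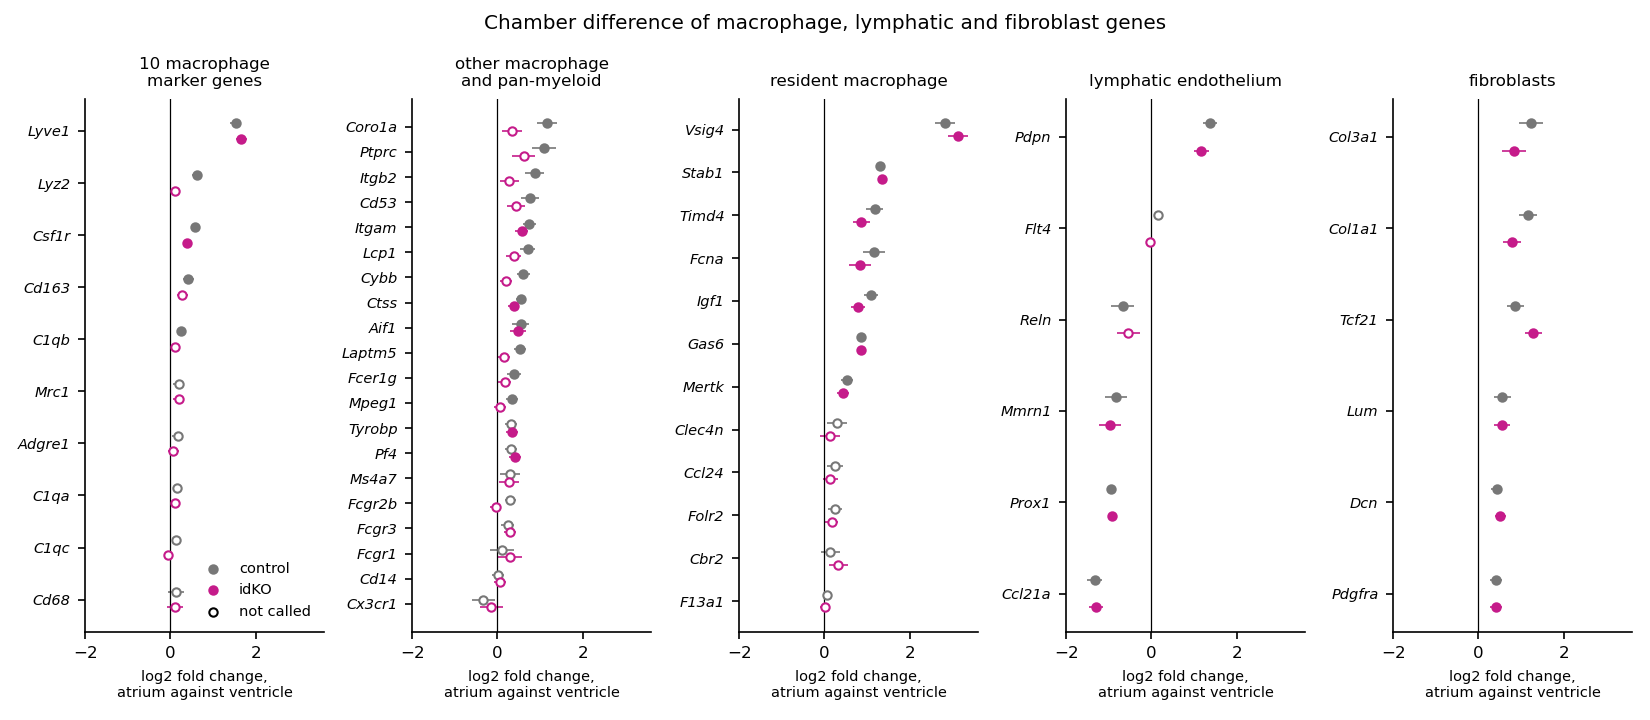
Log2 fold change of atrium against ventricle on the log2(value + 1) scale (horizontal axis; bars are the SE from limma) for 5 sets of genes, control mice in grey and idKO mice in magenta; filled points passed an adjusted p of 0.05 and open points did not. Lyve1 stands at 1.53 and 1.66 with Stab1 and Vsig4 on the atrial side, while the lymphatic genes are split, with Pdpn on the atrial side at 1.37 in controls and Prox1 and Ccl21a on the ventricular side.

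Across the 16 libraries, after each group's mean was taken off, the members varied together in part. Of 45 pairs 40 had a positive Pearson's r with a median of 0.30, from -0.11 for Cd68 with Cd163 to 0.83 for Lyz2 with C1qa, and C1qa and C1qb reached 0.72. C1qc, of the same cluster, was at 0.41 with each of C1qa and C1qb, below its 0.57 with Cd68. These are descriptions over points that share library, depth and scaling. By the same measure, 11190 genes were set beside the mean of the members, and predicted, clone, pseudogene and mitochondrially encoded names were then passed over. Of the rest, the genes outside the set most like that mean were Gnai2 (r = 0.86), Grap (0.82), Hmbox1 (0.81), Cd37 (0.81), Dpp3 (0.81) and Slbp (0.80), each over 16 libraries. Of these, Cd37 was higher in atria in both genotypes (1.71 and 1.03, limma adjusted p = 2.0e-04 and 0.013) and Gnai2 was lower (-0.27 and -0.13, adjusted p = 1.6e-04 and 0.035). None of the 6 was called between genotypes in ventricles or atria by limma.

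Whether a mouse high in one chamber was high in the other was asked of each member over 8 mice, on the deviations from the group means. Pearson's r ran from -0.58 for Mrc1 to 0.23 for C1qc, and 0 of 10 passed in an exact permutation test over all pairings within genotype, two-sided, with the smallest p of 0.161 for Mrc1 and adjusted p of 0.946 for all 10. Spearman's rho ran from -0.48 to 0.31, with an adjusted p of at least 0.748. For Lyz2 r was -0.36 (exact permutation p = 0.382), and idKO mouse 2 had the lowest Lyz2 of its group in the atrium, at 188, and the highest in the ventricle, at 225. Without the 2 mice farthest from the median atrial deviation, r was -0.69 for Mrc1 and -0.40 for Lyz2, and it changed sign for 5 members, C1qb (0.69), C1qa (0.24), Adgre1 (0.11), Lyve1 (0.032) and Cd163 (-0.35).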

How the data were processed

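Poly(A) RNA (20 ng a sample) was sequenced as 60-base single reads, per the labels' protocols. Reads were trimmed with cutadapt and quantified with RSEM 1.3.1 on GRCm38, per the submitters' processing notes. The deposited values are a normalised signal: whole reads plus a small constant over each library's effective size. Whole reads were recovered for all values at a tolerance of 0.01. No source used here names the scaling tool or the gene filter.

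Values entered limma 3.58.1 (R 4.3.3) as log2(value + 1), with genes at 1 or more in at least 4 libraries, a trended prior, two-sided tests and Benjamini-Hochberg adjustment over all genes tested. A gene was called at an adjusted p under 0.05, and fold changes understate low genes. EdgeR 4.0.16, DESeq2 1.42.0 and voom on recovered reads, other scalings, filters, priors, left-out libraries and a mouse block were alternatives. The code was tested on simulated data. Atrium and ventricle of a mouse share its number in the titles, and same-mouse deviations correlated at 0.175 to 0.296 over 12236 genes.

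All 10 members were named. From each list up to 4 called genes a comparison were named, smallest p first, and otherwise up to 2; exceptions are marked where they stand. Members and lists were chosen with earlier results of these data known. Promoters are from RefSeq (GRCm38.p6), transcripts and positions from GENCODE vM21.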

Additional observations from a re-analysis of the deposited data

Results flagged for a closer look

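Of 40 groups of 4 libraries, 10 genes in 4 groups, 2 held a library far from the others, where chance alone gives about 1 in 20. C1qb was 48.9 in idKO atrium 2, the lowest of its group, with a gap of 0.871 of the group's range to the nearest library. C1qc was 56.1 in idKO ventricle 1, the highest of its group, with a gap of 0.892 of the range. The limit for 4 libraries is 0.829.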

How the results depend on the processing

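Of 1080 recomputed member values, 1020 kept direction and side of the threshold, 11 lost a call, 29 gained one and 20 changed sign. In ventricles the count of called members went from 1 to 2 scaled to all reads, 3 with DESeq2, 0 with a prior without trend (Lyz2 adjusted p = 0.157) and 0 in a joint fit of both chambers (Lyz2 adjusted p = 0.0593), and from 0 to 1 leaving out each library. In control chambers it went from 5 to 10 scaled to all reads and 9 to reads outside the mitochondrial genome, and from 3 (without control mouse 1) to 6 leaving out each mouse. In idKO chambers it went from 2 to 10 and 7 under these scalings, and from 2 to 3 leaving out each mouse. With the mouse as a replicate block the counts were 5, 3 and, for the interaction, 0, and Cd163 in idKO chambers was the one member call it changed. Atrial and interaction counts were 0 under every alternative run.

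Log2 fold changes turned sign only where the value reported was not called. C1qc in idKO chambers went to 0.41 (adjusted p = 0.0025) scaled to all reads and 0.20 to reads outside the mitochondrial genome. In atria Csf1r turned to 0.00051 with array weights and ranged from -0.090 to 0.014 leaving out each library (0.0081 without idKO atrium 4), and Cd68 from -0.0050 (without idKO atrium 1) to 0.33. In the interaction Mrc1 was 0.063 with array weights and Cd68 0.0061 with DESeq2. Leaving out each mouse there gave -0.20 to 0.031 for Adgre1, -0.15 to 0.16 for Cd68, -0.16 to 0.18 for Mrc1, -0.050 to 0.25 for Lyve1 and -0.16 to 0.067 for C1qa. Between chambers it gave -0.054 to 0.22 (control) and -0.023 to 0.28 (idKO) for Cd68 and -0.0039 to 0.20 for Adgre1 (idKO). Of the correlations between chambers, Adgre1 turned to 0.036 scaled to all reads. Without the 2 farthest mice r was 0.24 for C1qa, 0.69 for C1qb, 0.11 for Adgre1, -0.35 for Cd163 and 0.032 for Lyve1. The cause was not tested.

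Over all genes, higher and lower calls went from 68 and 201 to 153 and 111 in ventricles and from 4214 and 4278 to 9923 and 1393 in control chambers scaled to all reads, and from 3998 and 4024 to 9284 and 1550 in idKO chambers. Scaled to reads outside the mitochondrial genome they were 7259 and 2302 in control chambers and 6703 and 2363 in idKO chambers. DESeq2 called 538 genes in ventricles against 269, 11 in atria against 3 and 86 in the interaction against 45, where scaling to all reads gave 22, voom 25 and a random mouse block 72. Cd68, at 73 to 193 reads, is the least precise member.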
